A study of Mus musculus with 6 samples.

Results

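The transcripts described here are 39 genes of mitosis, the phase of the cell cycle in which duplicated chromosomes are parted and the cell divides, chosen by name from a table of 26106 mouse genes. All 39 had an entry, and all 39 passed the filter on low counts that left 15590 genes for testing. They were measured in bone marrow-derived macrophages, the precursors from which the bone-resorbing osteoclasts form, grown from wild-type male C57BL/6 mice aged 6 weeks. All cultures received medium with 10% serum, 30 ng/mL M-CSF, which keeps macrophages alive and dividing, and 100 ng/mL RANKL, which drives them towards osteoclasts, for 2 days. Ctrl cells (n = 3 libraries) had no other addition named, and ZM cells (n = 3 libraries) also had 10 uM ZM-306416, which inhibits the receptor kinases for VEGF. Whether same-group libraries were grown apart, or from different mice, is not stated in the labels. The p-values therefore rest on library-to-library spread alone, and that spread may be technical. The cultures were wild-type cells with no marker for cycling cells, and in bulk RNA fewer dividing cells and less RNA per dividing cell cannot be told apart.

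Entry into mitosis is driven by the kinase Cdk1 with cyclins A and B, and Aurora and Polo-like kinases then build the spindle. The kinetochore joins chromosomes to spindle fibres, the spindle checkpoint holds the cell until all are joined, and the anaphase-promoting complex (APC/C), a ubiquitin ligase, then releases the chromosomes for separation and cytokinesis. Most of these genes are transcribed late in the cell cycle through the MuvB complex with B-Myb (Mybl2) and FoxM1, which reach promoters at the cell cycle genes homology region (CHR), while the factor NF-Y binds CCAAT boxes nearby. Osteoclast precursors divide under M-CSF and leave the cell cycle as they mature and fuse.

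The promoters of the members are shown first, because the CHR and the CCAAT box are the sequence features through which these genes are known to be transcribed together. In windows from 250 bases before to 50 bases after the start site (RefSeq, GRCm38.p6, 1 window a gene), 32 of the 39 members had an entry. TTTGAA, the common form of the CHR, occurred on either strand in 23 of the 32 (71.9%), against 18.1% of 27025 genes of the promoter table. CCAAT occurred on either strand in 23 of 32 (71.9%), against 37.9% of all, and both motifs in 19 (59.4%), against 7.12% of all. TTTGAA occurred in 46 of 124 promoters (37.1%) of the other mitosis genes listed later and in 4 of 30 promoters (13.3%) of the DNA replication genes. CCAAT was as common in the replication genes, in 19 of 30 (63.3%), as in the other mitosis genes, in 72 of 124 (58.1%), and the difference was not tested. Matches to both motifs were counted also where they overlapped each other, and a match is a run of letters, not a measured binding site. Printed here are the 150 bases before the start site for the 6 most abundant members with both motifs in the window, 5′ to 3′ on the strand of the gene, with matches to the motifs on either strand in capitals. In Bub1b and Kif23 the TTTGAA match began at positions 41 and 3 after the start site and is not in the printed stretch.
Mki67, chr7:135716380-135716529, reverse strand: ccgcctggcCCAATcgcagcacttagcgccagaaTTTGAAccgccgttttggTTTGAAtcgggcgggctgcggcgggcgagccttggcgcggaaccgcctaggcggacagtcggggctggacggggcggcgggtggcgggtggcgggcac
Top2a, chr11:99024190-99024339, reverse strand: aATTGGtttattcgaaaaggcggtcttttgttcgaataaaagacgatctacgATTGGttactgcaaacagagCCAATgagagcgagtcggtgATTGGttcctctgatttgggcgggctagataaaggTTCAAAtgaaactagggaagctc
Bub3, chr7:131560220-131560369, forward strand: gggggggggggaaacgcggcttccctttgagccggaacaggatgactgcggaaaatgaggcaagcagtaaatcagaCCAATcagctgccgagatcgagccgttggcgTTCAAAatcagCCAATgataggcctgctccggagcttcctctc
Bub1b, chr2:118598061-118598210, forward strand: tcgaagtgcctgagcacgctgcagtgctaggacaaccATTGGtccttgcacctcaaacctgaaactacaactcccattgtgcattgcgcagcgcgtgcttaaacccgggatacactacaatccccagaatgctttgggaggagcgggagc
Cdk1, chr10:69352913-69353062, reverse strand: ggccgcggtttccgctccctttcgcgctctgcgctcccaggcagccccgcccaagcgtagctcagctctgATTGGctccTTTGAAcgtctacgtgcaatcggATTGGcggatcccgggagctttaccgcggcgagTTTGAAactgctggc
Kif23, chr9:61946800-61946949, reverse strand: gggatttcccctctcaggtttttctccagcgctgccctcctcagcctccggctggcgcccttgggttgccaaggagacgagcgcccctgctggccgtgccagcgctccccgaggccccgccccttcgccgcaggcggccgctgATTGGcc

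After 2 days no mitosis gene was called different between ZM and Ctrl. By edgeR, 0 of 39 fell and 0 rose, where 1711 of 15590 genes tested (11.0%) were called, 5.44% of them all lower and 5.54% of them all higher. At an unadjusted p under 0.05 there were 4 of 39 members (10.3%), against 32.0% of all genes tested, and DESeq2 and limma-voom also called 0, with 17.2% and 10.5% of all genes called. The edgeR test called 0 members also with RLE, no or upper-quartile composition factors (10.7%, 9.84% and 10.6% of all genes called), without a filter (7.98%) and at 1 CPM or more in all libraries (13.0%). It called 0 with the replicate block too, alone (10.8%) or with a length offset (11.8%). The adjusted p of the members ran from 0.0684 to 0.962, and log2 fold changes from -0.80 for Mybl2 to 0.30 for Cenpa, with a median of -0.14 beside 0.00274 over all genes tested. The 95% intervals lay within a log2 fold of 1 either way for 31 of the 39 members, so for the other 8 a change of that size was not excluded by the fit. Limma-voom with library quality weights, which gave ZM replicates 1, 2 and 3 weights of 2.46, 0.330 and 0.139, called 8 members lower and 11 higher, 19 of 39, where 42.5% of all genes were called, 21.5% lower and 21.0% higher.

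The missing calls went with a wide spread among the ZM libraries. Summed over the 39 members, the level was 4748, 4602 and 4510 CPM (each gene's share of the library's counts, in parts of 1000000, scaled by TMM composition factors) in Ctrl replicates 1, 2 and 3. In ZM replicates 1, 2 and 3 it was 4533, 4869 and 3029 CPM, so that the first and second ZM libraries lay at or near the Ctrl range and the last at 65.6% of the Ctrl mean. Means were 4620 ± 119.9 CPM in Ctrl and 4143 ± 979.9 CPM in ZM (SD, n = 3 each). The SD of log2 CPM was larger in ZM than in Ctrl for 38 of 39 members (97.4%), against 83.3% of all genes tested. The median SD of the members was 0.354 in ZM and 0.0375 in Ctrl, beside 0.276 and 0.0903 over all genes tested. ZM replicate 3 was the lowest of the 6 libraries for 32 members (82.1%), against 35.9% of all genes.

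**Figure D1:**
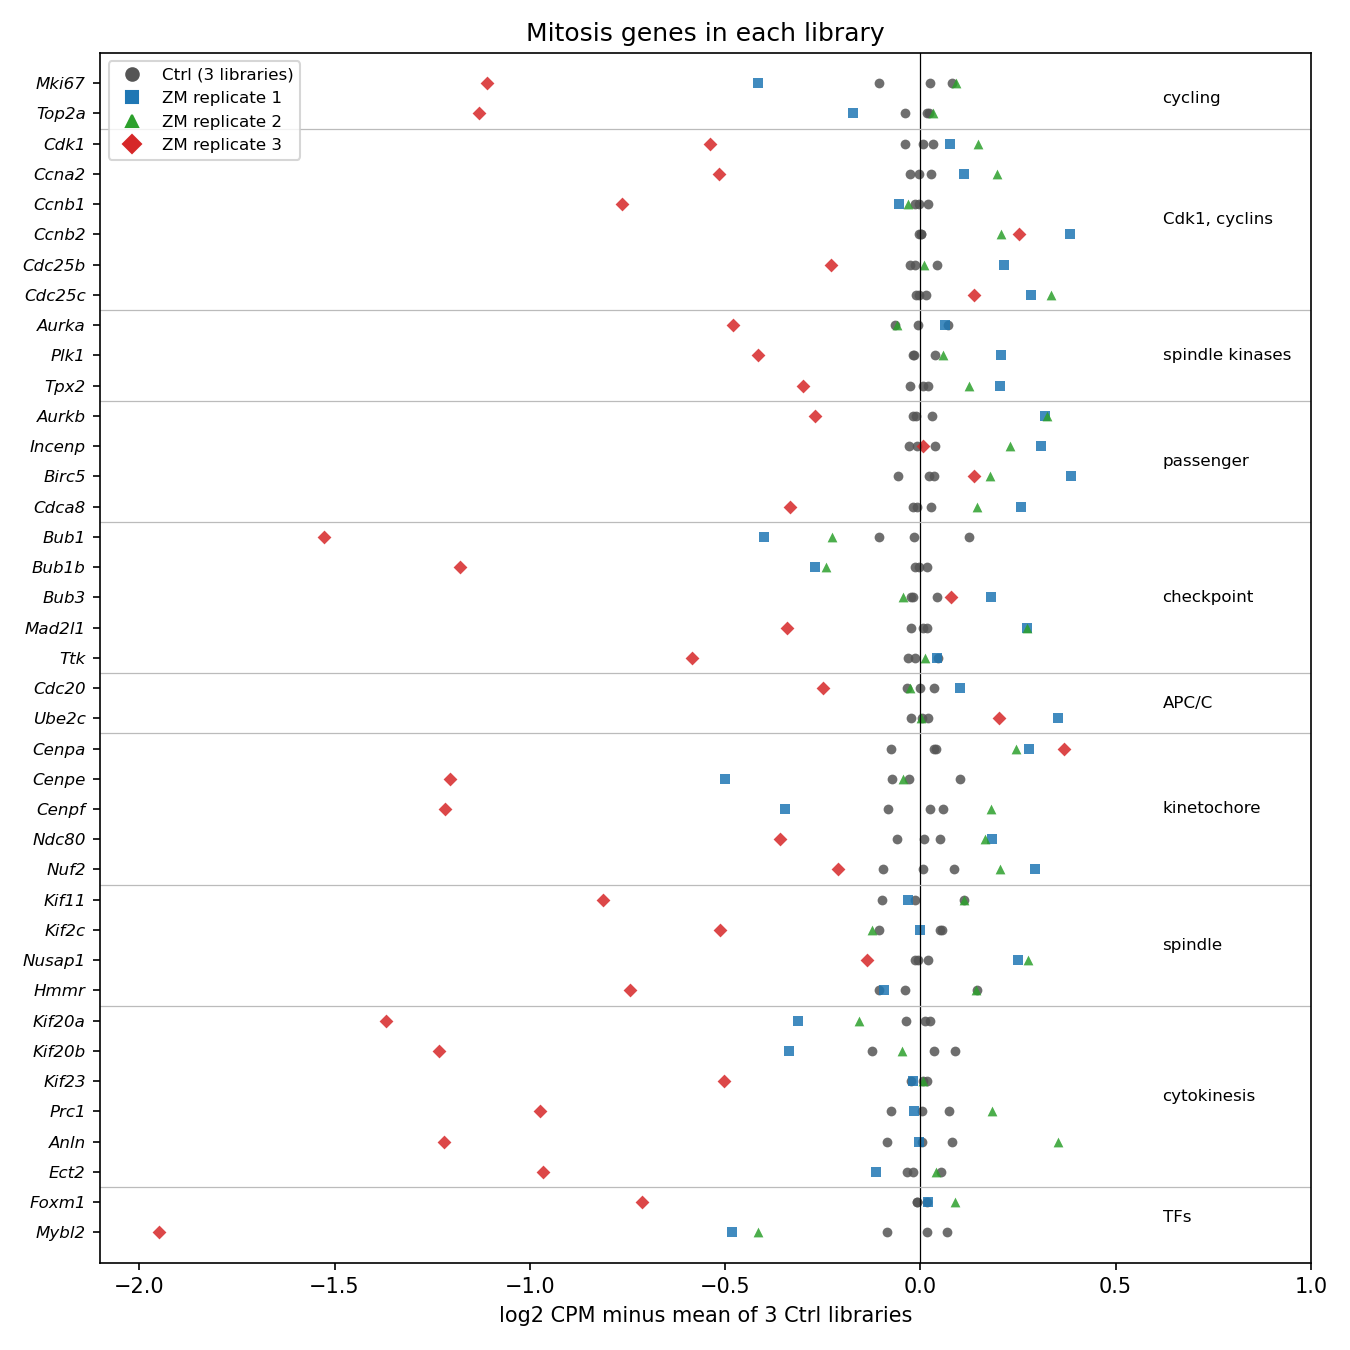
Each row is a mitosis gene, grouped by role, and each point is a library, placed by its log2 CPM minus the mean of the 3 Ctrl libraries. ZM replicate 3 lies below all 3 Ctrl libraries for 32 of 39 genes, whereas ZM replicates 1 and 2 lie above all of them for 20 and 22.

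Taken library by library, ZM replicate 1 was below all 3 Ctrl libraries for 11 members (28.2%, against 39.1% of all genes) and above them for 20 (51.3%, against 39.3%). ZM replicate 2 was below for 7 (17.9%, against 35.7%) and above for 22 (56.4%, against 37.5%). In ZM replicate 3 the counts turned, with 32 below (82.1%, against 44.8%) and 6 above (15.4%, against 42.3%). The median log2 difference from the Ctrl mean was 0.06, 0.09 and -0.51 in ZM replicates 1, 2 and 3, while the Ctrl libraries lay between -0.0180 and 0.0242. The ranges of the groups did not overlap for 5 members lower and 4 higher with ZM (12.8% and 10.3%, against 21.4% and 21.5% of all genes tested).

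ZM replicate 3 also stood apart in other ways. Its TMM factor was 0.919 against 0.995 to 1.03 in the other libraries. Its total count, 51356084, did not stand apart, as the other libraries had 45512004 to 54256377. The 8 osteoclast markers summed to 4661 to 4945 CPM in Ctrl and to 844, 849 and 473 CPM in ZM replicates 1, 2 and 3, and each of the 8 fell by the test. Ctsk, the collagen-cutting protease cathepsin K, and Acp5, the phosphatase TRAP, fell, with log2 folds of -3.04 and -3.02 (edgeR adjusted p = 0.00153 for both). The 8 macrophage markers summed to 10170 to 11590 CPM in Ctrl and to 23270, 18650 and 38780 CPM in ZM, with 5 of the 8 risen. Most of this sum was Lyz2, at means of 7779 CPM in Ctrl and 22440 CPM in ZM. Adgre1, which encodes F4/80, rose by 0.61 on the log2 scale (edgeR adjusted p = 0.00921), and Csf1r, the M-CSF receptor, had a log2 fold of 0.49 (adjusted p = 0.0920). Lists of 10 other cell types summed to at most 51.6 CPM in any library, and the highest was the endothelial list, led by Kdr (VEGF receptor 2) at a mean of 46.3 CPM in Ctrl and 14.2 CPM in ZM. No gene of the whole table was at 0 in all 6 libraries, so an entry there does not by itself show that a marker was expressed. Some listed markers had no entry under their symbol. Entries were found for 5 of 8 neutrophil markers, 3 of 5 T and NK cell markers and 1 of 4 mast cell and basophil markers. In the megakaryocyte list Pf4 had means of 6.70 and 24.2 CPM, and in the erythroid list Hbb-bs had 2.29 and 0.367 CPM. The leading markers S100a8 (neutrophils), Cd79b (B cells), Cd3d (T cells), Zbtb46 (dendritic cells) and Cpa3 (mast cells) had means under 2 CPM in both groups, and Runx2 (stromal cells) 17.3 and 12.1 CPM. Progenitor markers summed to 17.7 to 19.1 CPM in Ctrl and to 19.6, 21.2 and 17.9 CPM in ZM, most of it Cd34, at means of 14.5 and 18.1 CPM (adjusted p = 0.0842). Of the 4 progenitor markers, Kit and Gata2, both scarce, fell, from means of 2.80 to 0.752 CPM and from 0.874 to 0.312 CPM. The part of these differences in the mitosis values was not tested.

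Among the general markers of cycling cells, levels were high. Mki67, which encodes the Ki-67 coat protein of mitotic chromosomes (chr7:135689784-135716361 of GRCm38, reverse strand), was at 717, 690 and 631 CPM in Ctrl replicates 1, 2 and 3. It was at 508, 723 and 314 CPM in ZM replicates 1, 2 and 3. ZM replicate 2 was thus above every Ctrl library and ZM replicates 1 and 3 below, and the log2 fold of -0.40 (SE 0.26, 95% interval -1.02 to 0.22) was not called (edgeR adjusted p = 0.323). Top2a, the topoisomerase that untangles sister DNA, was at 489, 488 and 469 CPM in Ctrl and 428, 493 and 220.2 CPM in ZM (adjusted p = 0.387). Both genes were at under 50% of their Ctrl mean in ZM replicate 3, at 46.3% and 45.7%.

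Per length, in the deposited FPKM, Mki67 was also the most abundant member in Ctrl at 69.1 ± 4.83 FPKM (SD, n = 3), with Ccnb2 close to it at 67.7 ± 0.512. Top2a followed at 54.7 ± 1.57, then Cdc20 at 43.8 ± 0.875 and Incenp at 43.6 ± 0.822 FPKM. At the other end were Ttk at 4.71 ± 0.146 and Cdc25c at 3.17 ± 0.0145 FPKM. The neighbours Mki67 and Ccnb2, and Cdc20 and Incenp, lay within their spread of each other in Ctrl. No member was near the detection limit: the smallest count of any member in any library was 696.

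**Figure D2:**
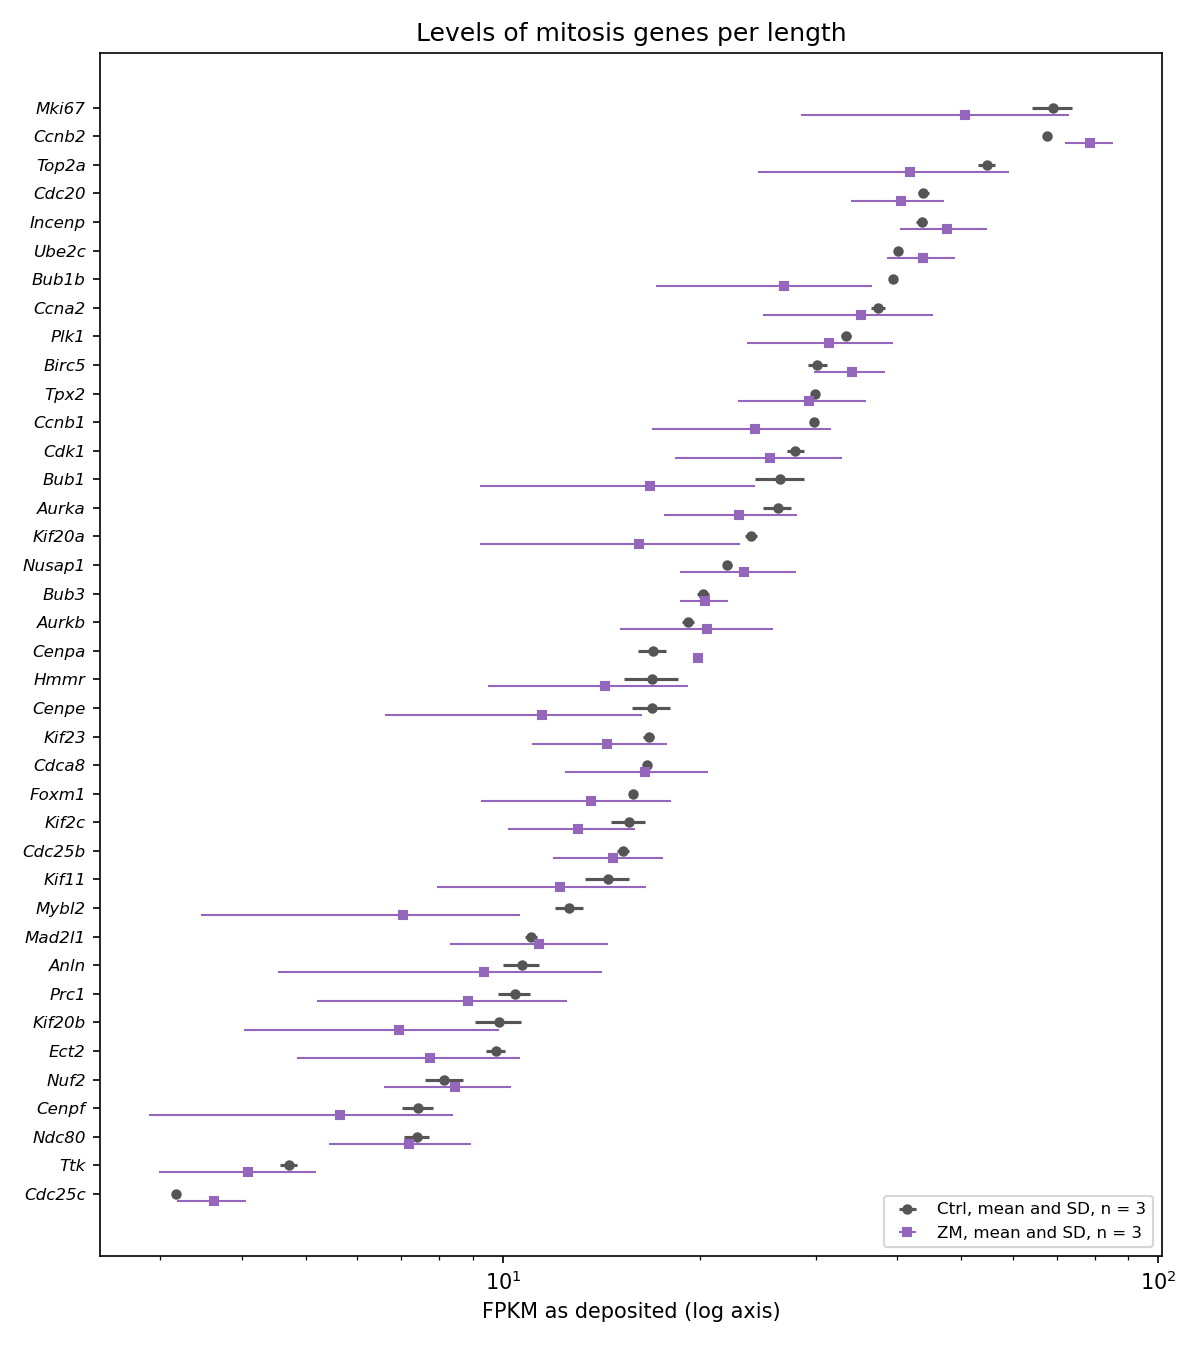
Mean FPKM as deposited (log axis) of each mitosis gene in Ctrl (circles) and ZM (squares), with the SD of 3 libraries as bars. Levels run from 3.17 FPKM for Cdc25c to 69.1 for Mki67 in Ctrl, and the ZM bars are wider for most genes.

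The engine of mitotic entry showed no called change, and its 2 B-type cyclins lay on opposite sides of Ctrl. Cdk1, the kinase itself, was at 138, 135 and 131 CPM in Ctrl and 142, 149 and 92.8 CPM in ZM (log2 fold -0.07, interval -0.48 to 0.33). Ccna2, cyclin A2, was at 152, 149 and 146 CPM in Ctrl and 161, 171 and 104 CPM in ZM. In both, ZM replicates 1 and 2 were above every Ctrl library and ZM replicate 3 below. Ccnb1, cyclin B1, was at 125, 122 and 123 CPM in Ctrl and 118, 120.3 and 72.5 CPM in ZM, a set of values that did not overlap, mostly by a narrow gap (log2 fold -0.25, interval -0.68 to 0.19, adjusted p = 0.382). Ccnb2, cyclin B2, was at 101 CPM in each Ctrl library and 132, 117 and 121 CPM in ZM. All ZM values were above all Ctrl values, with a log2 fold of 0.28 (SE 0.09, interval 0.08 to 0.48) that was not called (adjusted p = 0.0774). Cdc25b and Cdc25c encode phosphatases that switch Cdk1 on. Cdc25c, the weaker of them, was at 15.1, 15.2 and 15.4 CPM in Ctrl and 18.6, 19.2 and 16.8 CPM in ZM, again without overlap (adjusted p = 0.141). Cdc25b averaged 55.6 ± 1.46 CPM without and 56.0 ± 8.50 CPM with ZM. Exons of Ccna2 overlap Exosc9 on the opposite strand by 510 bases, and the counting strand is not given in the sources used here, so their separate levels are uncertain.

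None of the spindle kinases, their activator Tpx2 or the chromosomal passenger genes was called. Aurka, the centrosomal Aurora kinase, was at 68.2, 62.0 and 64.7 CPM in Ctrl and 67.9, 62.3 and 46.5 CPM in ZM. Plk1, a Polo-like kinase, was at 70.9, 70.8 and 73.6 CPM in Ctrl and 82.8, 74.6 and 53.8 CPM in ZM, and Tpx2, which activates Aurora A, at 137 ± 2.29 and 140 ± 24.8 CPM. All of these had intervals that included 0. The passenger complex corrects faulty attachments and is made of Aurora B (Aurkb), Incenp, survivin (Birc5) and borealin (Cdca8). For each of its 4 genes ZM replicates 1 and 2 were above every Ctrl library. Taken singly, these libraries were above every Ctrl library for 39.3% and 37.5% of all genes tested. The share with both above was not counted. The 4 genes had a median length of 3865.5 bases, beside 4919 for all members, and the part of length was not tested. Aurkb was at 56.4, 54.8 and 54.4 CPM in Ctrl and 68.8, 69.1 and 45.8 CPM in ZM. Birc5 was at 103, 96.4 and 102 CPM in Ctrl and 131, 113 and 110.4 CPM in ZM, without overlap (log2 fold 0.24, interval 0.01 to 0.47, adjusted p = 0.147). Cdca8 was at 83.5, 83.0 and 85.8 CPM in Ctrl and 100.5, 92.9 and 66.7 CPM in ZM, with ZM replicate 3 below every Ctrl library, as for Aurkb. Incenp in ZM replicate 3 was at 185 CPM, inside the Ctrl range of 181 to 189 CPM. The complex had a median log2 fold of 0.17, beside -0.14 over all members, and 0 of 4 genes were called.

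Among the checkpoint genes, both BUB kinases were below Ctrl in all 3 ZM libraries, and the other 3 genes were not. Bub1, a checkpoint kinase, was at 123, 111 and 105 CPM in Ctrl and 85.2, 96.2 and 39 CPM in ZM (log2 fold -0.62, SE 0.30, interval -1.31 to 0.07, adjusted p = 0.195). Bub1b, which encodes BubR1 of the mitotic checkpoint complex (chr2:118598211-118641591, forward strand), was at 166, 164 and 163 CPM in Ctrl and 136, 139 and 72.7 CPM in ZM. Every ZM value of both genes was below every Ctrl value, with ZM replicate 3 far below the others, and neither was called. For Bub1b the log2 fold was -0.50 (SE 0.23, adjusted p = 0.177). Bub3, the adaptor that brings both kinases to kinetochores, did not share this: it was at 137, 136 and 143 CPM in Ctrl and 157, 134 and 146 CPM in ZM. Mad2l1, which encodes the APC/C inhibitor Mad2, was at 90.7 ± 1.37 CPM in Ctrl and at 109.6, 109.5 and 71.5 CPM in ZM. Ttk, the kinase Mps1 that starts checkpoint signalling, was at 22.7 ± 0.621 and 20.4 ± 4.62 CPM.

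Neither partner of the APC/C was called by edgeR with all 6 libraries, at log2 folds of -0.05 for Cdc20 and 0.19 for Ube2c. Cdc20, the activator that the checkpoint blocks, was at 78.1, 80.0 and 82.0 CPM in Ctrl and 85.9, 78.5 and 67.3 CPM in ZM. Ube2c, its ubiquitin-conjugating enzyme, was at 102, 100.3 and 103 CPM in Ctrl and 130.2, 102 and 117 CPM in ZM. Ube2c was thus higher than Ctrl in ZM replicates 1 and 3 and inside the Ctrl range in ZM replicate 2. Exons of Cdc20 overlap those of Elovl1, on the opposite strand and with more counts, by 53 bases.

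At the kinetochore, the members split. Cenpa, the histone H3 variant that marks the centromere (chr5:30666777-30674830, forward strand), had the smallest adjusted p of all members. It was at 99.5, 99.3 and 92.0 CPM in Ctrl and 117, 115 and 125 CPM in ZM, higher in every ZM library, with a log2 fold of 0.30 (SE 0.09, interval 0.09 to 0.50, adjusted p = 0.0684). Unlike most members it was highest in ZM replicate 3. Cenpe, a kinetochore motor, was at 152, 139 and 135 CPM in Ctrl and 100.2, 137 and 61.5 CPM in ZM (adjusted p = 0.211). Cenpf, a large kinetochore protein, was at 117, 114 and 106 CPM in Ctrl and 87.9, 127 and 48.1 CPM in ZM. For both, ZM replicate 2 was the highest ZM library and lay inside or above the Ctrl range. Ndc80 and Nuf2, which form the arm that grips microtubules, were at 46.9 ± 1.78 and 50.5 ± 3.18 CPM in Ctrl and at 47.4 ± 9.48 and 54.5 ± 9.64 CPM in ZM.

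Among spindle motors and fibre-binding proteins, no member had all 3 ZM libraries above, or all 3 below, every Ctrl library. Kif11, the motor that pushes spindle poles apart, was at 114, 104 and 98.4 CPM in Ctrl and 103, 114 and 60.0 CPM in ZM. Kif2c, which takes microtubules apart, was at 68.7, 61.6 and 68.8 CPM in Ctrl and 66.2, 60.9 and 46.5 CPM in ZM. Nusap1 and Hmmr, both spindle-binding proteins, had log2 folds of 0.14 (SE 0.12) and -0.19 (SE 0.21).

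For cytokinesis, all 6 members had a negative log2 fold, from -0.52 for Kif20a to -0.15 for Anln and Kif23, and none was called. Negative folds were found for 24 of all 39 members and 7760 of 15590 genes tested. Without ZM replicate 3, Anln (0.19) and Prc1 (0.09) were positive, and Kif20a, Kif20b, Kif23 and Ect2 stayed negative. The 6 genes had a median length of 7429 bases, beside 4919 for all members, and the part of length was not tested. Kif20a, the motor that carries the passenger complex to the central spindle, was at 103, 98.8 and 102 CPM in Ctrl and 81.6, 90.8 and 39.2 CPM in ZM, below every Ctrl library in each (adjusted p = 0.228). Its exons overlap Cdc23 on the opposite strand by 1271 bases. Anln, the actin-binding scaffold of the cleavage furrow, was at 100.0, 94.9 and 89.1 CPM in Ctrl and 94.4, 121 and 40.5 CPM in ZM. It had the widest interval on the high side, from -0.94 to 0.64, with ZM replicate 2 the highest and ZM replicate 3 the lowest of all 6 libraries. Kif23, Prc1 and Ect2, which build the central spindle and place the furrow, were at 70.5%, 50.8% and 51.2% of their Ctrl means in ZM replicate 3. For Kif20b, a motor of the late midbody, the value was 42.4%.

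The transcription factors of the programme were both lowest in ZM replicate 3. Mybl2, the B-Myb subunit that joins MuvB (chr2:163054687-163084688, forward strand), was at 57.7, 53.9 and 59.9 CPM in Ctrl and 40.9, 42.8 and 14.7 CPM in ZM. It was below every Ctrl library in each ZM library, and at 25.8% of the Ctrl mean in ZM replicate 3, the lowest share of any member. The log2 fold was -0.80 (SE 0.35, interval -1.62 to 0.02) and was not called (adjusted p = 0.164). Foxm1 was at 88.3, 88.2 and 89.9 CPM in Ctrl and 90.1, 94.4 and 54.1 CPM in ZM, so that only ZM replicate 3 was low (adjusted p = 0.596).

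**Figure D3:**
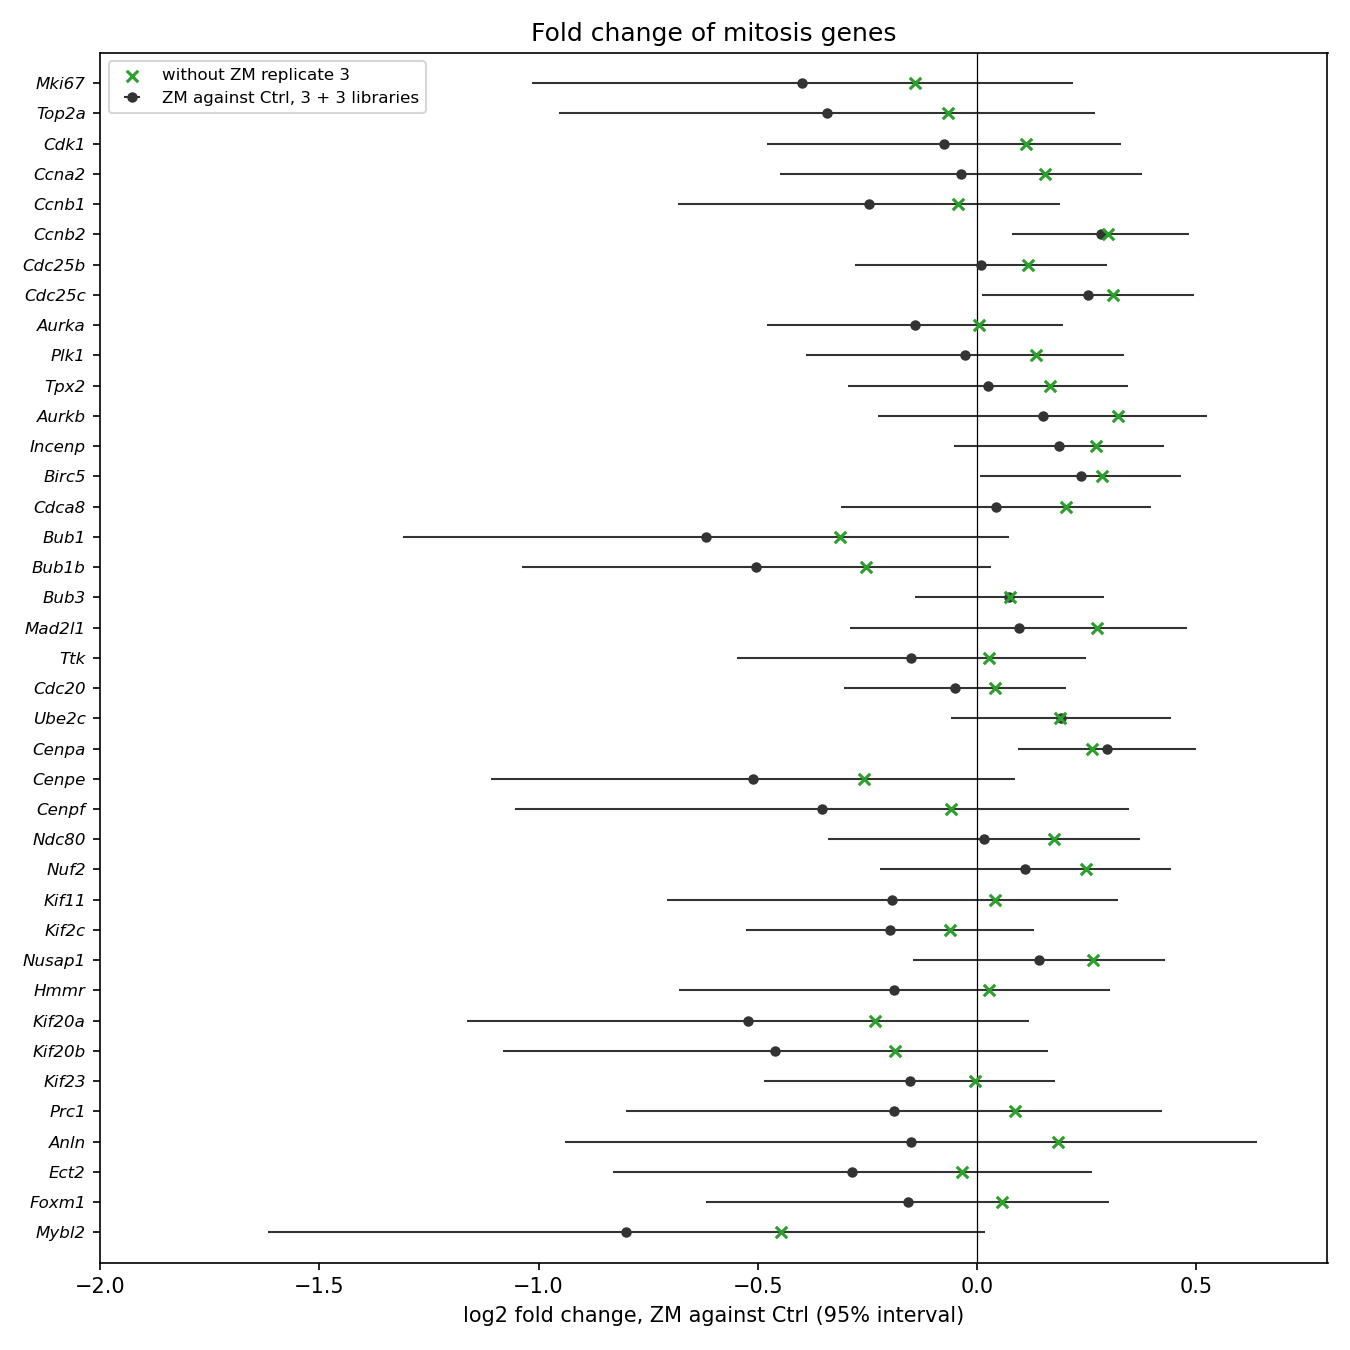
Log2 fold change of ZM against Ctrl for each mitosis gene from the edgeR fit of 3 and 3 libraries (circles, with 95% intervals) and from the fit without ZM replicate 3 (crosses). In the full fit 35 of 39 intervals include 0, the other 4 lie above it, and leaving out ZM replicate 3 moves most values upwards.

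Leaving out ZM replicate 3 was an alternative with 1 library fewer and a narrower spread. The median log2 fold of the members was then 0.07, no longer below Ctrl, although single members still lay below. Of the 39 members, 11 (28.2%) were called, against 19.5% of all genes in that fit, 9.91% higher and 9.56% lower. The 8 higher genes were Ccnb2, Cdc25c, Aurkb, Incenp, Birc5, Mad2l1, Cenpa and Nusap1. Their log2 folds ran from 0.26 for Cenpa to 0.32 for Aurkb. The 3 lower genes were Mybl2 (log2 fold -0.45, adjusted p = 0.00446), Bub1 (-0.31, adjusted p = 0.0403) and Bub1b (-0.25, adjusted p = 0.0241). Without ZM replicate 2 the members called were Mki67 and Cenpe, lower, and Ccnb2, Ube2c and Cenpa, higher (12.8%, against 31.4% of all genes, 15.3% lower and 16.1% higher). Without ZM replicate 1, 0 were called, against 4.17% of all genes. The edgeR fit also called 0 members without Ctrl replicates 1, 2 or 3 in turn, where 1.12%, 1.40% and 0.921% of all genes were called.

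Gene length went with the differences between the ZM libraries. Among 12324 genes at 1 CPM or more, those of up to 3071 bases had a median log2 difference from Ctrl of 0.29 in ZM replicate 3, and those of 5675 bases or more -0.29. The same medians were 0.16 and -0.15 in ZM replicate 1 and 0.0253 and -0.000681 in ZM replicate 2. Members followed this in part. In ZM replicate 3 the 6 members in the short class had a median of -0.26, the 18 members between 3072 and 5673 bases -0.53, and the 15 longer members -0.81. Spearman's rho between length and difference over the 39 members, which share the same libraries, was -0.46, 0.14 and -0.43 in ZM replicates 1, 2 and 3, given as a description. Measured from the length trend of all genes, the members still lay low in ZM replicate 3, with a median of -0.56 and 36 of 39 below the trend. In ZM replicates 1 and 2 the medians were 0.06 and 0.09. With the trend removed in the fit, 1 member was called, Cenpa (log2 fold 0.34, adjusted p = 0.0442), against 13.6% of all genes, 6.49% higher and 7.14% lower.

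**Figure D4:**
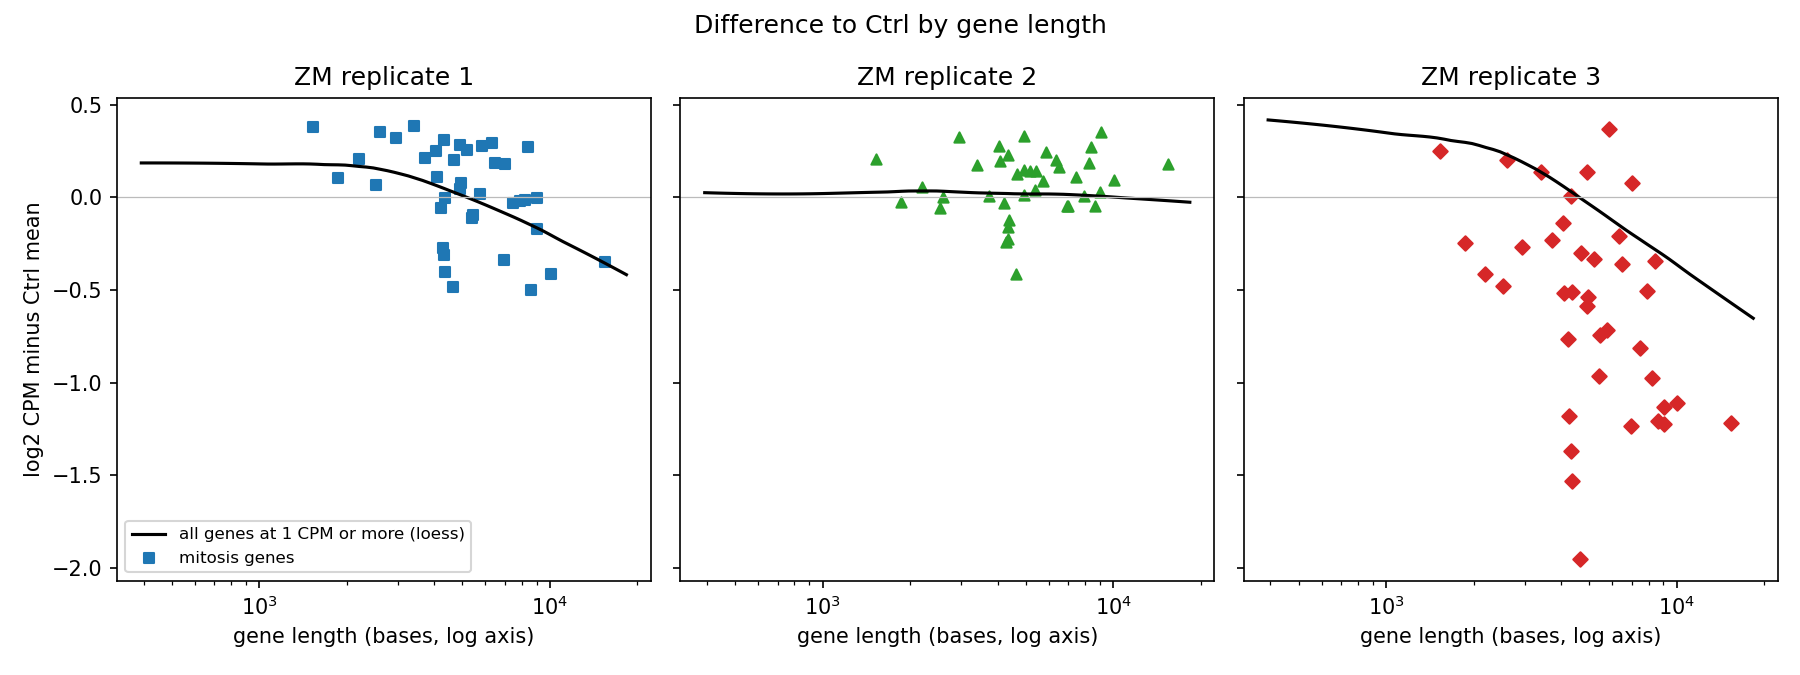
Each point is a mitosis gene, placed by gene length (bases, log axis) and by its log2 CPM in a ZM library minus the Ctrl mean, and the line is the loess trend of all genes at 1 CPM or more. In ZM replicate 3, 36 of 39 points lie below the line, against 14 and 15 in ZM replicates 1 and 2.

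Other genes of mitosis, 143 tested genes in 6 lists, were also mostly not called. Of these, 2 rose and 0 fell, where 5.54% of all genes tested rose and 5.44% fell. An unadjusted p under 0.05 was found for 25 (17.5%), against 32.0% of all genes tested. Limma-voom also called 2 higher and 0 lower, where 10.5% of all genes were called in either direction. DESeq2 called 7 higher and 1 lower, where 17.2% of all genes were called. Cdkn3, a phosphatase that acts on Cdk1 and Cdk2, rose from 16.6 ± 0.109 to 25.2 ± 2.10 CPM, a log2 fold of 0.60 (SE 0.10) with an adjusted p of 0.0164. Anapc11, the catalytic RING subunit of the APC/C, rose from 42.2 ± 3.11 to 76.1 ± 17.3 CPM (log2 fold 0.85, adjusted p = 0.0240). Without ZM replicate 1 or any 1 Ctrl library, 0 of the 143 were called higher. In those fits 4.17% and 0.921% to 1.40% of all genes were called in either direction. By list, 1 of 17 APC/C genes and 1 of 20 genes of mitotic entry and exit rose, and 0 were called of 35 other kinetochore genes, 21 condensin, cohesin and separase genes, 33 other spindle and cytokinesis genes and 17 MuvB, Rb and E2F genes. Among those not called were Ccnf, cyclin F, at 109 ± 1.43 and 68.4 ± 19.5 CPM (adjusted p = 0.0733), and Espl1, which encodes separase, at 83.0 ± 1.98 and 52.9 ± 19.8 CPM (adjusted p = 0.141). Pttg1, which encodes the separase inhibitor securin, was at 15.2 ± 0.897 and 25.6 ± 9.93 CPM (adjusted p = 0.1001). Rb1 was at 36.4 ± 2.13 and 48.2 ± 4.45 CPM (adjusted p = 0.0522), with exons shared with Rcbtb2 and Lpar6 on the opposite strand. The log2 folds of other genes with the smallest p of their lists, none called, were 0.49 for Cenpm, 0.41 for Mis18a and 0.46 for Cenpx at the centromere, and 0.31 for Knstrn, 0.30 for Kif2a and 0.40 for Haus8 at the spindle (adjusted p from 0.0589 to 0.0870). They were 0.31 for Ube2s and 0.28 for Anapc10 of the APC/C, 0.36 for Ensa, which restrains the mitotic phosphatase PP2A, and 0.53 for Lin37 and 0.51 for Lin52 of MuvB (adjusted p from 0.0528 to 0.1009). Wapl, which releases cohesin from DNA, had a log2 fold of -0.32 (adjusted p = 0.146). Exons of Haus8 and Ube2s overlap Myo9b and Rpl28, on the opposite strand and with more counts, by 116 and 183 bases.

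The median difference from Ctrl in ZM replicate 3 was lower than in ZM replicates 1 and 2 for every list, from -0.68 for other spindle and cytokinesis genes to -0.07 for the APC/C (-0.06 in ZM replicate 2), a complex of many subunits. The 38 genes of DNA replication were at -0.07, -0.03 and -1.0 in ZM replicates 1, 2 and 3, the lowest of these lists in ZM replicate 3 but not in the others. Their summed level in ZM replicate 3 was 49.9% of the Ctrl mean, beside 65.6% for the mitosis genes, and by edgeR 0 of 38 were called, against 11.0% of all genes tested, with 2 at an unadjusted p under 0.05, against 32.0%. Limma-voom also called 0, against 10.5% of all genes, and DESeq2 called 1 lower, against 17.2% called in either direction. The nearest to a call was Cdt1, which licenses replication origins, at 105 ± 4.08 CPM without and 76.0 ± 16.0 CPM with ZM (adjusted p = 0.0931). Gins3, of the replicative helicase, and Chaf1a, which assembles new chromatin, had log2 folds of -0.47 and -0.69 (adjusted p = 0.119 and 0.185). The difference between the lists was not tested.

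**Figure D5:**
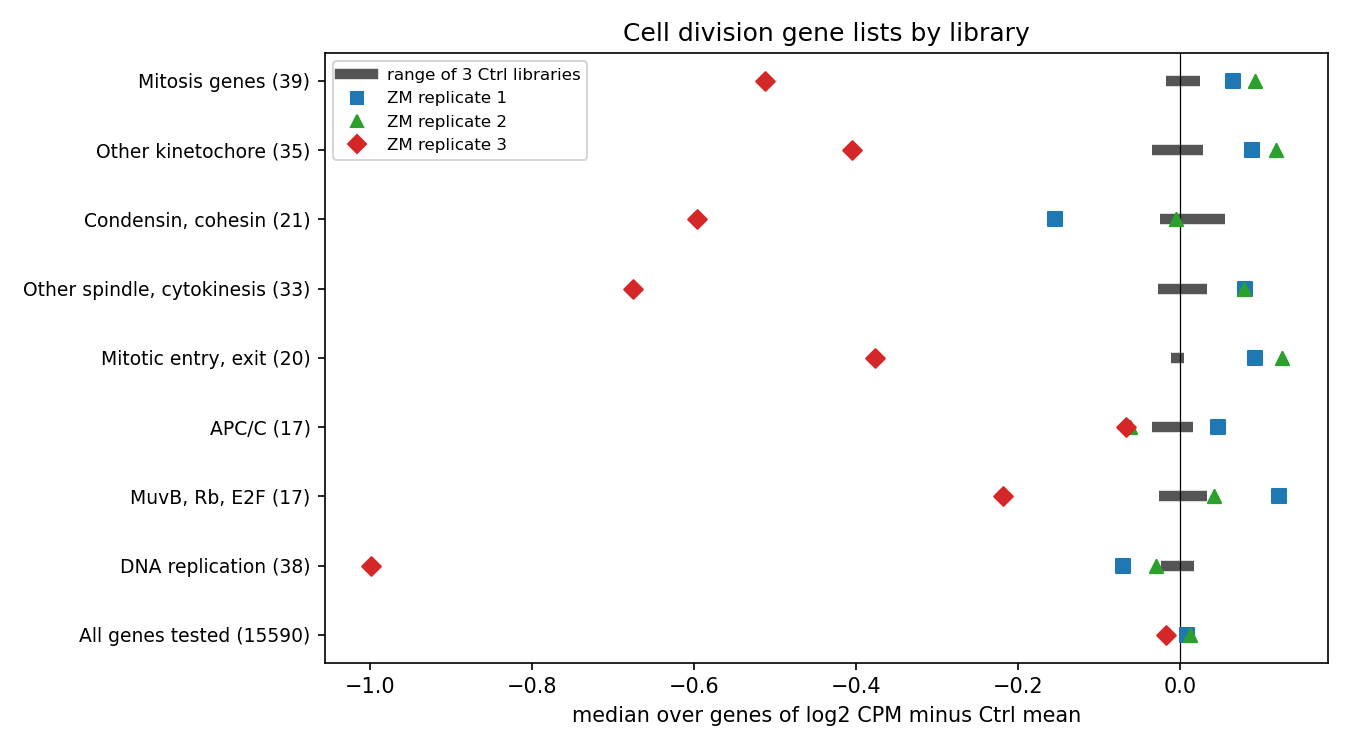
Median over the genes of each list of log2 CPM minus the Ctrl mean, by library, with the number of tested genes in brackets and the range of the 3 Ctrl libraries as a bar. ZM replicate 3 lies at -0.51 for the mitosis genes, -1.0 for DNA replication and near 0 for all genes tested, while ZM replicates 1 and 2 lie between -0.15 (condensin, cohesin) and 0.13 (mitotic entry, exit).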

How the data were processed

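Messenger RNA was sequenced in 6 libraries, 3 Ctrl and 3 ZM, grouped by their labels. The deposited table gave whole-number counts per gene, which the authors had not normalized, and FPKM values, which the authors made from the counts by gene length and column total. HISAT2 2.2.1, featureCounts 2.0.3, Subread, DESeq2 and build mm10 are named, per the submitters' processing notes, with no role or order; strand setting and annotation release are not given in the sources used here. Between 72.7% and 76.4% of counts from 1 to 20 were even, as when both mates of a pair are counted. Fragments may then be fewer than counts, which was not tested.

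The gene-wise test was that of edgeR 4.0.16 under R 4.3.3 (filterByExpr, TMM, quasi-likelihood F test, group alone), with Benjamini-Hochberg adjustment over 15590 genes and a threshold of 0.05. "Rose", "fell" and "called" refer to this threshold. SE is the log2 fold over the square root of F, and levels are CPM as mean ± SD or per library. Log2 CPM used a prior count of 2. The alternatives used DESeq2 1.42.0 and limma 3.58.1. The length offset (loess, span 0.5), alone or with the block, was added after seeing the data. Gene lengths were recovered from the FPKM values and came out whole within 0.001 bases. Positions and exon overlaps are from GENCODE M21 (GRCm38), in which 98.4% of identifiers were found. Exons of 12 members overlapped another gene, 8 of them an opposite-strand gene with over 1% of their counts.

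The named genes were all 39 members, the 3 tested genes with the smallest p in each other list and 4 label checks (Ctsk, Acp5, Adgre1, Csf1r). Also named were Lyz2, Kit, Gata2 and the most abundant gene of each other cell type list. The members and lists were chosen with earlier results of these data known.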

Additional observations from a re-analysis of the deposited data

How the results depend on the processing

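The 39 mitosis genes stayed without a call with RLE, upper-quartile or no composition factors, without a filter, at 1 CPM or more in all libraries, with DESeq2, limma-voom, the replicate block and the length offset with block. With the length offset 1 was higher. Weighted limma-voom gave 8 lower and 11 higher, and without single libraries 0 to 3 were lower and 0 to 8 higher. The total of called genes was 2920 with DESeq2 (17.2% of all genes), and 148 to 5023 without single libraries (0.921% to 31.4%). It was 6622 with weighted limma-voom (42.5%, with 21.5% lower and 21.0% higher). With no filter 7.98% of all genes were called, with the replicate block 10.8%, with the length offset 13.6% and with that offset and the block 11.8%. Other mitosis genes lower with ZM numbered 1 with no filter, DESeq2, the replicate block or the length offset with block, 27 with weighted limma-voom and 0 to 15 without single libraries. Those higher numbered 7 with DESeq2, 37 with weights, 6 with the length offset and 0 to 19 without single libraries. For replication genes, 1 was lower with DESeq2, 7 lower and 3 higher with weights, and 0 to 2 lower without single libraries.

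Signs turned for 16 members, none called in the turned setting, with log2 folds from -0.19 to 0.10 in the fit of all libraries. With weighted limma-voom these were Cdk1 (0.0556), Ccna2 (0.0927), Aurka (0.0297), Plk1 (0.161), Ttk (0.0136) and Cdc20 (0.0703). Without composition factors they were Cdc25b (-0.0494), Tpx2 (-0.0313), Cdca8 (-0.0115) and Ndc80 (-0.0389). At 1 CPM in all libraries they were Cdc25b (-0.00789) and Ndc80 (-0.000668), the latter also with limma-voom (-0.00162) and the replicate block (-0.00331). Cdc25b turned with the replicate block (-0.000884), the length offset (-0.0588) and that offset with the block (-0.0707), as did Tpx2 in the last (-0.00404). Without single libraries the log2 fold ran from -0.20 to 0.11 for Cdk1, -0.17 to 0.16 for Ccna2, -0.10 to 0.12 for Cdc25b, -0.26 to 0.00485 for Aurka, -0.16 to 0.14 for Plk1, -0.0736 to 0.17 for Tpx2, -0.0769 to 0.20 for Cdca8, -0.00444 to 0.27 for Mad2l1, -0.26 to 0.0288 for Ttk, -0.13 to 0.0408 for Cdc20, -0.0758 to 0.18 for Ndc80, -0.37 to 0.0417 for Kif11, -0.38 to 0.0275 for Hmmr, -0.42 to 0.0873 for Prc1, -0.49 to 0.19 for Anln and -0.30 to 0.0569 for Foxm1. The cause was not tested.

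Deviations of same-numbered libraries correlated weakly, at 0.0306, 0.0470 and 0.107 for replicates 1, 2 and 3. ZM replicates 1 and 3 correlated best with the same-numbered Ctrl library, and ZM replicate 2 with Ctrl replicate 1 (0.0889). Such small values from 3 libraries a group cannot decide whether the replicate numbers pair the libraries. With the replicate block 1679 genes were called in place of 1711. The number of calls moved with single libraries: leaving out ZM replicate 2 or 3, which had the lowest quality weights (0.330 and 0.139), gave 5023 and 3120 called genes. Precision is limited by 3 libraries a group.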

Other observations

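Outside the members, the fit without ZM replicate 3 called 19 of the 143 other mitosis genes, 17 higher and 2 lower. In that fit 19.5% of all genes were called, 9.91% higher and 9.56% lower. The 19 genes were read after their values were seen. The largest rises were those of Anapc11 (log2 fold 0.67, adjusted p = 0.00333) and Cdkn3 (0.57, adjusted p = 0.00387), followed by Cenpm (0.49), Spc25 (0.44) and Haus1 (0.43). Exons of Haus1 overlap those of Atp5a1, on the opposite strand and with far more counts, by 129 bases. E2f1, a transcription factor of S phase entry, was higher by a log2 fold of 0.36 (SE 0.0691, adjusted p = 0.00741). The 2 lower genes were Ccnf (-0.45, adjusted p = 0.00225) and Espl1 (-0.37, adjusted p = 0.00736). Of the 38 replication genes, Cdt1 (-0.30, adjusted p = 0.0224) and Chaf1a (-0.36, adjusted p = 0.0142) were lower and 0 were higher, beside the same shares of all genes.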
